A study of Mus musculus with 12 samples.

Results

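The genes described here encode the subunits of the proteasome and their dedicated assembly factors, activators and inhibitor. They were taken as every feature of the arrays with a single gene symbol in the platform annotation made of Psm, a letter from a to g and a number. This gave 44 genes on 88 of 28704 features. The study exposed MC3T3-E1 cells, a clonal osteoblast-like line derived from mouse calvaria, to fluid flow and measured total RNA on spotted 2-colour arrays. In the 6 shear samples, confluent monolayers on glass were placed in a parallel plate chamber under a pulsatile flow that averaged 5 dyn/cm2 for 5 h at 1 Hz. The 6 control samples stayed static in the same apparatus. All cells were grown in medium with 5% serum, and the circulating medium held 1% serum. The labels name no separate cultures and the cells are a single clonal line, so the p-values reflect sample-to-sample spread that could be wholly technical.

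The proteasome degrades proteins that carry ubiquitin chains. Its core particle is a barrel of outer alpha rings, which gate the entry, and inner beta rings, which hold the proteolytic sites. A regulatory particle caps the barrel: its base holds a ring of ATPases that unfold the substrate, and its lid holds the enzyme that removes the ubiquitin chain together with scaffold subunits. Other activators can bind the core in place of the regulatory particle, and chaperones assist the assembly of core and base. In osteoblasts, the proteasome degrades ubiquitin-tagged transcription factors such as Runx2.

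The 4 lid genes with the smallest p-values, Psmd11, Psmd6, Psmd12 and Psmd14, are shown first by the sequence around their start sites, from RefSeq on GRCm38.p6, 250 bases before to 50 after the start. Capitals mark matches on either strand to 4 motifs, which were the antioxidant response element core TGACNNNGC, the CCAAT box CCAAT, the GC box GGCGGG and the ETS core CCGGAAG. The windows are chr11:80428365-80428664 on the plus strand for Psmd11, chr14:14120896-14121195 on the minus strand for Psmd6, chr11:107479278-107479577 on the plus strand for Psmd12 and chr2:61711444-61711743 on the plus strand for Psmd14.
Psmd11: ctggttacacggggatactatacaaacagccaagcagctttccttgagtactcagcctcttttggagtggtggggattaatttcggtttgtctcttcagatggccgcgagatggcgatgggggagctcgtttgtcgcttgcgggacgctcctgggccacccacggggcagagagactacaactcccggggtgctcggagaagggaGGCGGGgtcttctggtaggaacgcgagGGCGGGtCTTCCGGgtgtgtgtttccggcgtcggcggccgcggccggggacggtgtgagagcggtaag
Psmd6: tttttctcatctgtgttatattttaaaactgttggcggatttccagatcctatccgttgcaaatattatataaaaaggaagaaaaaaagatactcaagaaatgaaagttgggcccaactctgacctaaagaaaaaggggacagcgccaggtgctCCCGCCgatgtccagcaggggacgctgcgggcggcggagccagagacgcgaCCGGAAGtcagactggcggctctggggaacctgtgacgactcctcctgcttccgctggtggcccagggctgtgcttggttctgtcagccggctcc
Psmd12: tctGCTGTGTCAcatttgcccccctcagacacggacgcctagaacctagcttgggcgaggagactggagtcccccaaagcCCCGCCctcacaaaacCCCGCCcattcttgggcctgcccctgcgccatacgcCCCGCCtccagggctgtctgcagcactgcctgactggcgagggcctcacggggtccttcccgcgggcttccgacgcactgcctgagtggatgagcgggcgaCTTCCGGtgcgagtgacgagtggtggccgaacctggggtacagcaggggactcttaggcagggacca
Psmd14: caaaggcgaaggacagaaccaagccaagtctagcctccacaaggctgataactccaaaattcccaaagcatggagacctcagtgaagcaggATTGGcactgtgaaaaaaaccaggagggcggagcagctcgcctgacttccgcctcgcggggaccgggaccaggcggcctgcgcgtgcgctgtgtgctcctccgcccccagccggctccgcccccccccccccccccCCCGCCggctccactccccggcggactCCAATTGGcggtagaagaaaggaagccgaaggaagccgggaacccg
Psmd11, Psmd6 and Psmd12 held both the GC box and the ETS core. Psmd12 held the antioxidant response element core as well, and Psmd14 held the GC box and 3 CCAAT matches, of which the last 2, on opposite strands, overlap. RefSeq windows were matched by symbol for 37 of the 44 genes, as 39 windows, and none was matched for Psmb1, Psmb2, Psmb7, Psmc3, Psmd3, Psmd7 and Psmg2. The ETS core was in 15 of the 39 windows (38.5%), against 17.0% of the 9135 windows of tested genes and 8.86% of all 32851 windows. It was in 4 of 6 lid windows, those of Psmd11, Psmd6, Psmd12 and Psmd13. The GC box was in 27 of 39 (69.2%), against 60.1% and 35.3%. The antioxidant response element core was in 6 (15.4%), against 14.1% and 12.4%, and the CCAAT box was in 14 (35.9%), against 37.4% of both sets. These matches describe the letters of the windows and do not show binding.

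The deposited values are log2 ratios of a feature's net fluorescence to the median of its block of the array, so every level below is relative to the sample's own features. Between 18434 features (control 4) and 23790 (control 1) had a value. The median net fluorescence per sample lay between 243 (shear 5) and 868 (shear 6). Within each group, replicates 1 and 2 were treated as hybridised together, as were 3 and 4, and 5 and 6, which the design and dye labels imply but do not state. Over all features, Pearson correlations were 0.954 to 0.981 within these pairs, 0.873 to 0.915 between other samples of a group, and 0.844 to 0.898 between groups. Of 12 osteoblast marker genes listed, 6 were tested, and Runx2, Sp7, Bglap, Ibsp and Spp1 were not among the genes named on the array. The summed level of the tested markers, in multiples of the block median, was 50.4 to 138 in shear samples and 51.3 to 136 in control samples. In bulk RNA, fewer cells of a type and less RNA per cell cannot be told apart.

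Shear was compared with control to ask which proteasome transcripts differed after flow. Each gene was represented by 1 probe, and limma's p-values were adjusted by Benjamini-Hochberg over 15601 features, with a threshold of 0.05. All 44 genes were tested. Psmd11 and Psmd6, both lid subunits, rose, which is 2 of 44 genes against 1.28% of all features. None fell, against 0.205% of all features. None was lower at an unadjusted p under 0.05 either, against 3.39% of all features, but the alternatives gave 0 to 3, with 2 after centring on features measured in all samples, 2 with cyclic loess and 3 without the array of shear replicates 1 and 2. At an unadjusted p under 0.05, 7 genes were higher (15.9%), against 10.4% of all features. The changes of 34 genes lay above 0, against 61% of all features, and 31 lay above the median of all features, against 50%. The median log2 change, shear minus control, was 0.37 over the 44 genes and 0.11 over all features. Without the array of control replicates 3 and 4 these medians were 0.21 and 0.018, and with cyclic loess they were 0.15 and -0.013, with 24 of 44 genes above 0.

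**Figure D1:**
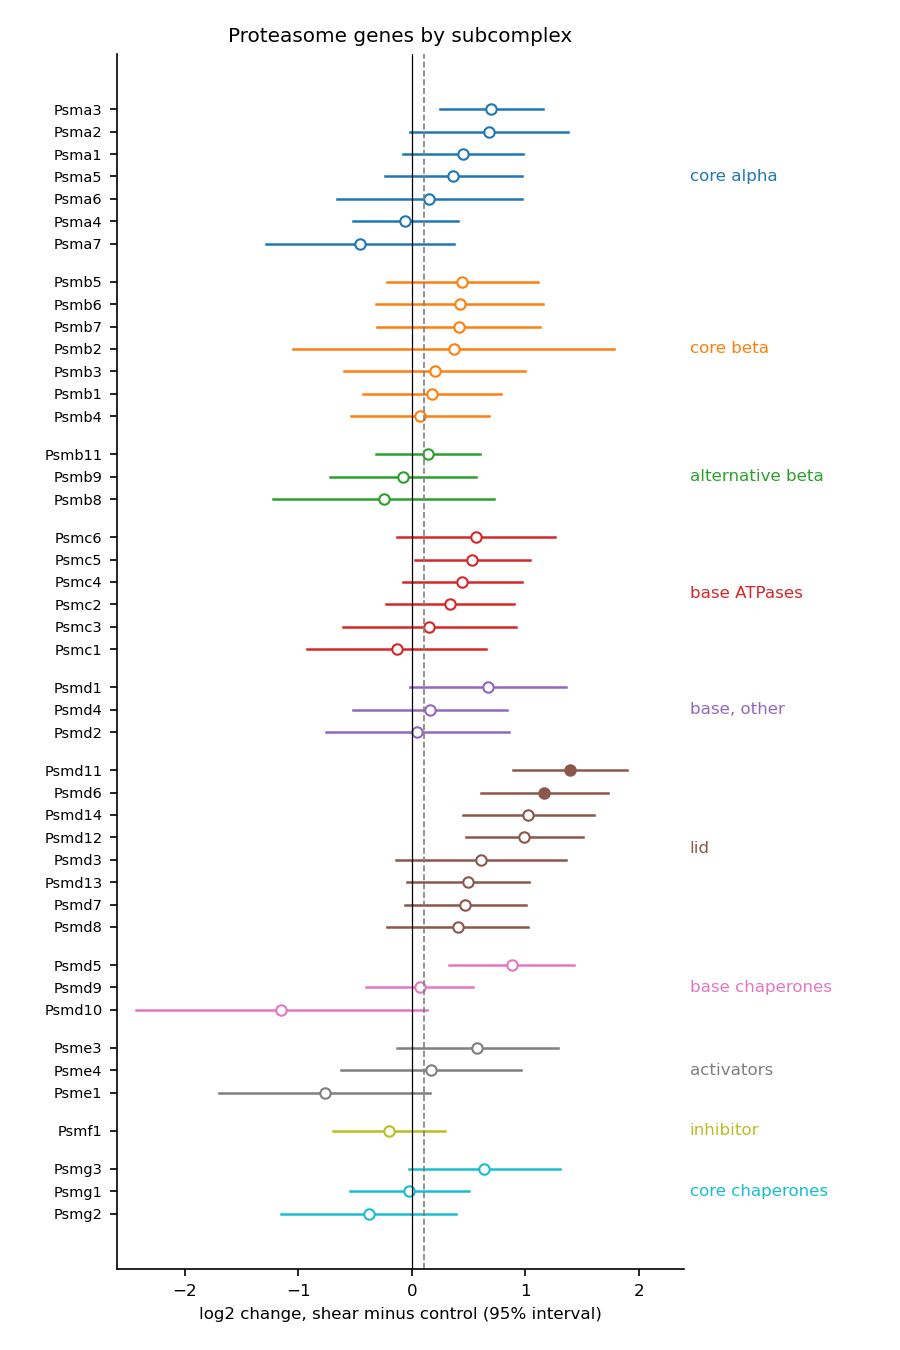
Log2 change, shear minus control, of each of the 44 proteasome genes with its 95% confidence interval, grouped by subcomplex. Filled points pass the test and the dashed line is the median of all features (0.11). Psmd11 and Psmd6 are the 2 filled points, and the interval of Psmd10 is among the widest.

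The lid stood highest among the subcomplexes. Its 8 genes with Psm symbols had a median change of 0.80, with all 8 above 0 and 2 past the test. With Sem1, the small lid subunit whose symbol lies outside the Psm series, the median over 9 lid genes was 0.61, and Sem1 itself had a change of 0.27, with overlapping groups, and -0.13 on its other probe. In 5 of the 8 (62.5%), every shear sample lay above every control sample, against 5.76% of all features and 7 of the 44 proteasome genes (15.9%). With Sem1 this was 5 of 9. The 5 were Psmd11, Psmd6, Psmd12, Psmd14 and Psmd13, and no second probe repeated the separation in any of them. The other probes of Psmd13 (0.34), Psmd14 (0.80) and Psmd11 had overlapping groups, and Psmd6 and Psmd12 had 1 probe each. The reverse, every shear sample below every control sample, was seen in 0 of 44 genes and 1.6% of all features.

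Psmd11, a scaffold subunit that ties the lid to the core and the base, was measured at 2.71, 2.92 and 3.33 (lowest, median and highest log2 level) in shear samples, against 1.46, 1.61 and 1.76 in control samples. The groups did not overlap, and the means of the 3 control arrays differed by no more than 0.023. The change was 1.40 ± 0.23 (SE, n = 6 and 6), or 2.63-fold, with a 95% confidence interval of 0.89 to 1.90 and adjusted p = 0.00989 (limma, Benjamini-Hochberg). The call ended without the array of shear replicates 3 and 4 (1.26, adjusted p = 0.0827) and without that of shear replicates 5 and 6 (1.45, adjusted p = 0.0512; limma, Benjamini-Hochberg).

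Psmd6, a lid scaffold subunit with the same kind of fold as Psmd11, was at 1.39, 1.5 and 2.20 in shear samples, against 0.16, 0.52 and 0.70 in control samples. Again no control sample reached the lowest shear sample, and both shear samples on the array of replicates 3 and 4 were the highest. The change was 1.17 ± 0.26 (SE, n = 6 and 6), or 2.25-fold, with an interval of 0.61 to 1.73 and adjusted p = 0.0423 (limma, Benjamini-Hochberg). This call ended in 10 of 15 alternatives, among them each of the 6 that left out an array (adjusted p = 0.0682 to 0.188, limma, Benjamini-Hochberg), while its change stayed between 0.98 and 1.28 in all 15.

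Psmd12, another lid scaffold subunit, was at 1.11, 1.29 and 1.74 in shear samples, against 0.00, 0.47 and 0.83 in control samples, without overlap. Its change of 0.99 ± 0.24 (SE) did not pass (adjusted p = 0.0603, limma, Benjamini-Hochberg). Psmd14, the metalloprotease of the lid that cuts ubiquitin chains from the substrate, was at 2.54, 2.67 and 2.86 in shear samples, against 1.27, 1.60 and 2.22 in control samples. Its groups did not overlap either, and the shear samples lay close together (SD 0.12, against 0.31 in controls). The change was 1.03 ± 0.27 (SE) and did not pass (adjusted p = 0.0808, limma, Benjamini-Hochberg). Psmd13, also a scaffold subunit, was at 1.67, 1.81 and 1.87 in shear samples, against 0.92, 1.39 and 1.5 in control samples. The gap between its groups was narrow and the change was 0.50 ± 0.25 (SE, adjusted p = 0.418, limma, Benjamini-Hochberg).

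The other lid genes with Psm symbols overlapped between groups. Psmd3 had a change of 0.61, Psmd7, the inactive partner of Psmd14, one of 0.47, and Psmd8 one of 0.41. In Psmd3 the overlap came from the array of shear replicates 3 and 4 (1.09 and 1.54), below the other shear samples. Control replicates 3 to 6 lay at 1.51 to 1.79. Control replicates 1 and 2 (both 0.35) lay below every other sample and took no part in the overlap. Psmd8 was likewise lower in shear replicates 3 and 4 (1.19 and 1.04) than in the other shear samples (1.93 to 2.30).

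**Figure D2:**
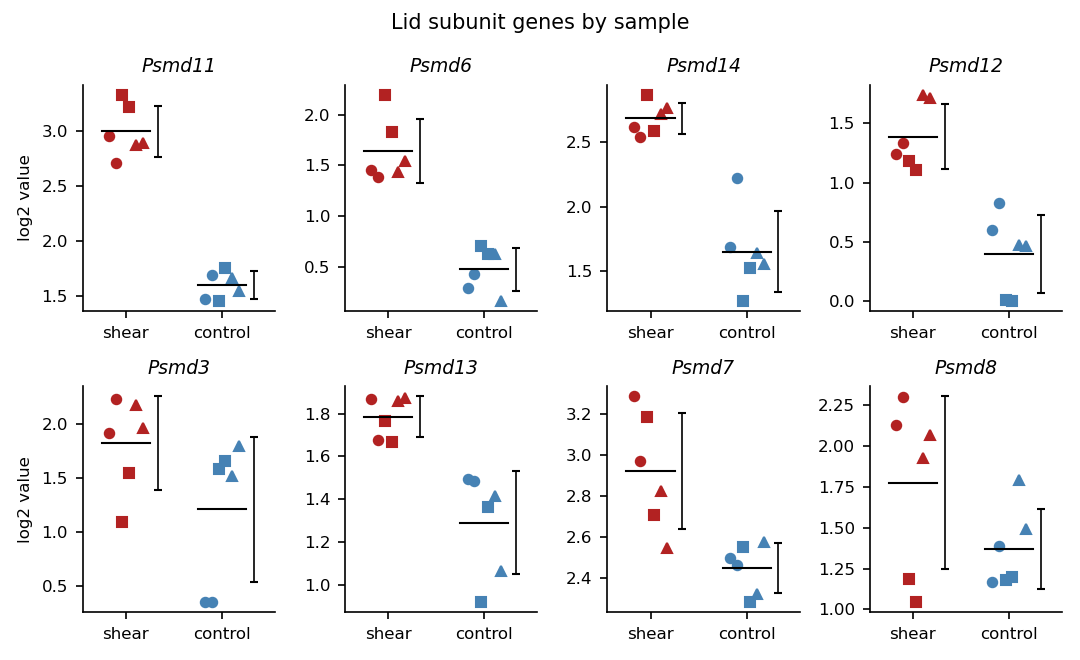
Log2 level of the 8 lid genes in each sample, shear left of control in each panel, with circles for replicates 1 and 2, squares for 3 and 4 and triangles for 5 and 6. The horizontal bar is the group mean and the vertical bar beside it is ± 1 SD (n = 6). On the chosen probes, the groups are apart in Psmd11, Psmd6, Psmd12, Psmd14 and Psmd13 and overlap in Psmd3, Psmd7 and Psmd8.

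The probes of Psmd11 did not give the same result. The array carried 3 features for it, of which the 1 described above was chosen because it had a value in all samples and the highest mean of those that did. A second feature had a change of -0.26 ± 0.40 (SE), with levels of 0.34 to 1.98 in shear samples and 0.12 to 1.79 in control samples, so its groups overlapped over most of their range. The third had a change of 1.00 ± 1.60 (SE), and its interval reached from -2.42 to 4.43. Its levels lay between 3.43 and 3.98 in shear replicates 1 to 4 and between 2.43 and 3.42 in control replicates 1, 2, 5 and 6. It was at -3.02 and 1.32 on the array of shear replicates 5 and 6 and at -2.24 and -2.14 on that of control replicates 3 and 4. The mean of the 3 features gave a change of 0.71, which did not pass (adjusted p = 0.665, limma, Benjamini-Hochberg). The net fluorescence behind the chosen feature was 2089 to 8735 in shear samples and 1310 to 1864 in control samples, and behind the feature with the negative change 295 to 1656 and 247 to 1553. Psmd6 had a single feature, with a net fluorescence of 623 to 3443 in shear samples and 392 to 819 in control samples, so agreement between probes could not be examined for it. The sequences and positions of these probes were not used here, so which part of the transcript each reads is not stated.

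**Figure D3:**
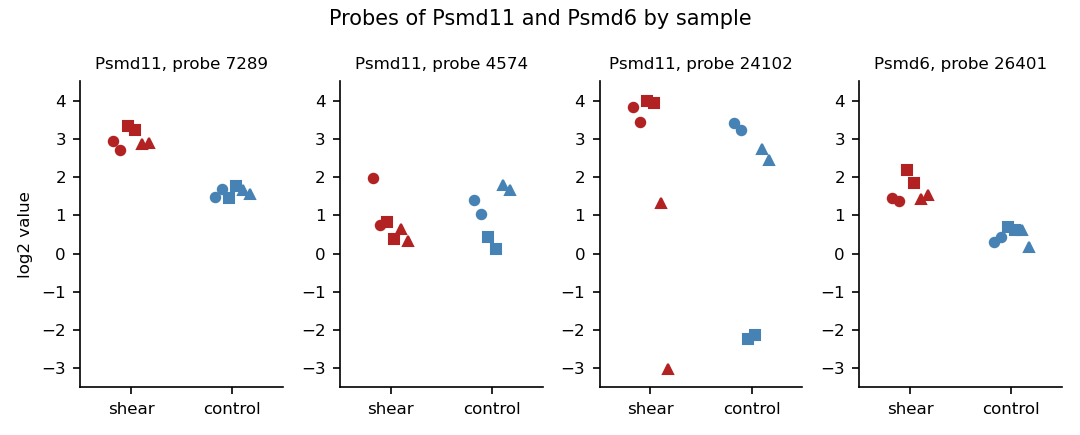
Log2 level in each sample of the 3 features of Psmd11 and the single feature of Psmd6, shear left of control, with circles for replicates 1 and 2, squares for 3 and 4 and triangles for 5 and 6. The chosen feature of Psmd11 (left) and that of Psmd6 separate the groups, while the other 2 features of Psmd11 overlap.

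In the base, the 6 ATPase genes had a median change of 0.39 (0.16 with cyclic loess) and none passed. Psmc5 was at 3.0, 3.50 and 3.63 in shear samples, against 2.58, 2.83 and 3.20 in control samples. The groups overlapped between shear replicates 2 and 4 and control replicates 1 and 2, and the change was 0.53 ± 0.24 (SE, adjusted p = 0.335, limma, Benjamini-Hochberg). The changes of Psmc6 (0.56), Psmc4 (0.44), Psmc2 (0.34), Psmc3 (0.15) and Psmc1 (-0.13) did not pass. Among the 3 measured base subunits that are not ATPases, the median change was 0.16, with -0.073 under cyclic loess and 0.37 with the mean of a gene's probes. The scaffold gene Psmd1 had a change of 0.67, the second large scaffold gene Psmd2 one of 0.05 and the ubiquitin receptor gene Psmd4 one of 0.16. Psmd2 was at 0.37 and 0.90 on the array of shear replicates 5 and 6 and between 2.09 and 2.65 in the other shear samples, against 1.56 to 1.96 in control samples.

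In the core particle, the 7 alpha genes and the 7 constitutive beta genes had a median change of 0.37 each, and none passed. These medians were 0.13 and 0.17 with cyclic loess and 0.19 and 0.41 with the mean of a gene's probes. Without the array of shear replicates 3 and 4 the alpha median was 0.079, and without that of shear replicates 5 and 6 the beta median was 0.083. Psma3 was at 3.21, 3.48 and 3.56 in shear samples, against 2.47, 2.77 and 3.07 in control samples. On the chosen probes it was the only core gene whose groups did not overlap, with a change of 0.70 ± 0.21 (SE, adjusted p = 0.127, limma, Benjamini-Hochberg). Psma2 had values in only 4 shear samples (2.16, 2.46 and 2.97), against 1.32, 1.79 and 2.47 in the 6 control samples. Its groups overlapped, and its change was 0.68 ± 0.32 (SE, adjusted p = 0.38, limma, Benjamini-Hochberg). The other alpha genes were Psma1 (0.45), Psma5 (0.37), Psma6 (0.16), Psma4 (-0.06) and Psma7 (-0.46).

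The genes of the proteolytic beta subunits, Psmb5 with chymotrypsin-like, Psmb6 with caspase-like and Psmb7 with trypsin-like activity, had changes of 0.44, 0.42 and 0.41. The structural beta genes Psmb2 (0.37), Psmb3 (0.20), Psmb1 (0.18) and Psmb4 (0.07) completed the ring. Psmb2 was at -1.28 and -0.37 in shear replicates 3 and 4 and between 2.07 and 2.53 in the other shear samples, against 0.12 to 1.41 in control samples. Without that array its change was 1.41, and with all arrays its SE was 0.66. The alternative beta genes, which replace catalytic subunits in immune cells and thymus, had a median change of -0.08, which ran from -0.25 to 0.14 over the alternatives. Psmb8 stood at -0.25, Psmb9 at -0.08 and Psmb11 at 0.14, none of them past the test, and Psmb8 had no value on the array of control replicates 3 and 4.

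Among the chaperones of the base, Psmd5 was at 1.68, 2.11 and 2.30 in shear samples, against 0.70, 1.27 and 1.52 in control samples. The groups did not overlap, and the change of 0.88 ± 0.26 (SE) did not pass (adjusted p = 0.116, limma, Benjamini-Hochberg). Its other probe had a change of 0.13 with overlapping groups, and the mean of both gave 0.51. Psmd9 had a change of 0.07. Psmd10, the chaperone also known as gankyrin, had the lowest change of all 44 genes on the chosen probes, -1.15 ± 0.60 (SE, adjusted p = 0.429, limma, Benjamini-Hochberg). Its level was -2.31 and -1.27 in shear replicates 3 and 4, -0.13 and -0.53 in replicates 5 and 6, and 1.06 and 0.85 in replicates 1 and 2, against -0.09 to 1.2 in control samples. Without the array of replicates 3 and 4 the change was -0.45, without that of replicates 1 and 2 it was -1.82, and its other probe gave -0.25.

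The activator genes had a median change of 0.17, which ran from -0.12 to 0.44 over the alternatives, and none passed. Psme3, whose product forms a nuclear activator ring, had a change of 0.58, and 1.12 on its other tested probe, with overlapping groups on both. Psme4, a large single-chain activator, had a change of 0.17. Psme1, a subunit of the interferon-inducible activator, had one of -0.77 ± 0.44 (SE), with levels of 2.63 to 3.91 in shear samples and 2.66 to 5.02 in control samples. Its other tested probe gave -0.13. The inhibitor gene Psmf1 stood at -0.20. The core assembly chaperone genes were Psmg3 (0.64), Psmg1 (-0.02) and Psmg2 (-0.38), and Pomp, the core maturation factor outside the Psm symbols, had a change of 0.49. None of these passed.

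With every probe as a feature of its own, 81 of the 88 proteasome features were tested. Several of them can read 1 gene in the same RNA, so they are not independent and their shares add little to those per gene. The same 2 features of Psmd11 and Psmd6 passed higher, against 1.42% of 21883 probes, and 0 passed lower, against 0.201% (limma, Benjamini-Hochberg). At an unadjusted p under 0.05, 24 features were higher (29.6%), against 11.0% of all probes. At that cut 0 were lower, against 782 of the 21883 probes. The changes of 65 features lay above 0, against 60% of all probes, and their median was 0.44, against 0.10. In 17 features (21.0%) every shear sample lay above every control sample, against 6.26% of all probes. Of 27 genes with at least 2 tested probes, 20 had all probes on the same side of 0 (74.1%), 17 of them above and 3 below, against 57.4% of 4049 named genes on the array. The median spread between the probes of a gene was 0.40 in both sets, and Psmd11 had the widest spread of the 27, 1.65.

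Several genes that missed the test on the chosen probe had other probes with the groups apart, a selection made after their values were seen. All 3 probes of Psma3 separated the groups (changes of 0.70, 0.93 and 0.87). Of the 3 probes of Psmd7, 2 did (0.95 and 0.67), as did 2 of the 3 of Psmd1 (0.95 and 0.59) and 2 of the 3 of Psmc2 (1.08 and 0.65). The second probe of Psmb3 did as well (0.50). The 4 tested probes of Psmc5 gave changes of 0.53 to 0.86, and 1 of them separated the groups. Other genes were split or uneven. Psma7 had changes of -0.46, 0.31 and 0.71 on its 3 tested probes, Psmc1 had -0.13 and 0.62, and the chosen probe of Psmg1 had -0.02 while its other probe had 0.61. The chosen probe of Psmd2 had 0.05 and its other tested probe 0.69, and for Psmb4 these were 0.07 and 0.84, with overlapping groups on all 4.

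**Figure D4:**
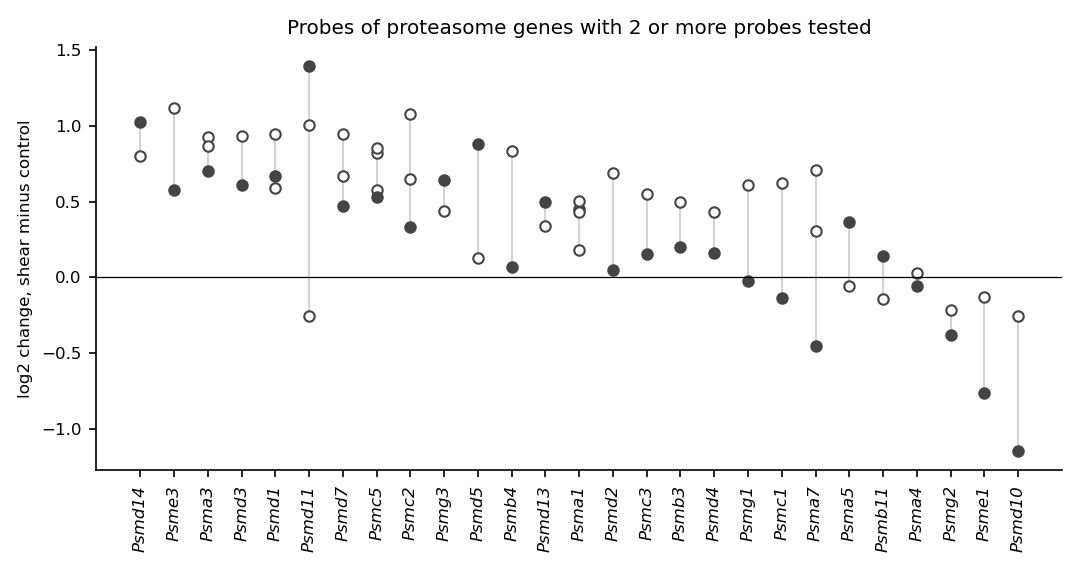
Log2 change, shear minus control, of every tested probe of the 27 proteasome genes with at least 2 tested probes, with the chosen probe filled and a line at 0. The 3 probes of Psmd11 spread from -0.26 to 1.40, while those of Psma3 lie between 0.70 and 0.93.

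Across samples, each gene was centred on its mean and the median taken over the 41 proteasome genes with a value in every sample. This median was 0.08 to 0.35 in shear samples and -0.42 to 0.10 in control samples, against -0.06 to 0.20 and -0.37 to 0.12 for the median over all 12227 features measured in every sample. For the 8 lid genes it was 0.17 to 0.49 in shear samples and -0.51 to -0.20 in control samples, with no overlap. For the 6 base ATPase genes it was -0.03 to 0.36 in shear samples and -0.37 to 0.16 in control samples. The array of control replicates 3 and 4 held the lowest value of 19 of the 41 genes, 14 of them in control 4, the sample with the fewest measured features. The part of that array in the differences between groups was not tested beyond leaving it out.

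**Figure D5:**
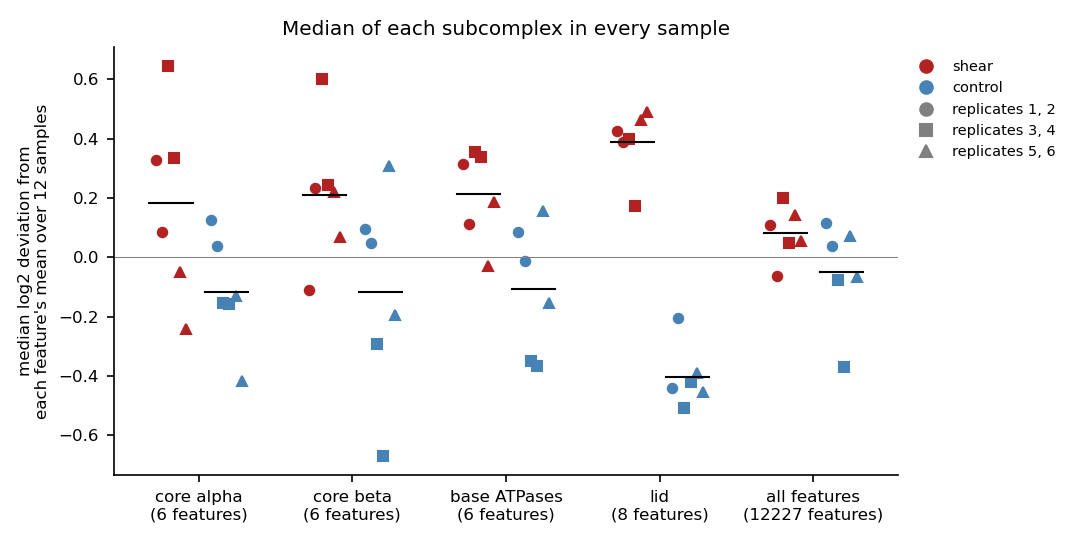
Median over genes of the centred log2 level in each sample, for 4 subcomplexes and for all features, shear left of control, with replicate pairs marked by shape and a bar at each group's mean. The lid medians of shear (0.17 to 0.49) and control (-0.51 to -0.20) samples do not overlap, and control 4 is the lowest sample for all features.

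Some proteasome genes differed widely between arrays of the same group. The range of the 3 array means was over 1 on the log2 scale in 11 genes in shear (25%) and in 10 genes in control (22.7%), against 14.6% and 21.2% of all features. The widest of these ranges in shear were those of Psmb2 (3.34), Psmd10 (2.75), Psma7 (2.0) and Psmd2 (1.89). The median absolute difference over proteasome genes was 0.14 to 0.30 between samples of an array, 0.18 to 0.56 between arrays of a group and 0.33 to 0.90 between groups.

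Genes that work with the proteasome were given beside it. Of 13 listed proteasome-associated genes, 8 were tested, and 1 rose, with a median change of 0.37. It was Txnl1, a thioredoxin-like protein bound to the regulatory particle, at 2.43, 2.71 and 3.62 in shear samples, against 0.96, 1.21 and 1.84 in control samples. Its groups did not overlap, and its change was 1.57 ± 0.31 (SE, adjusted p = 0.0257, limma, Benjamini-Hochberg). Its other probe gave 0.35, and the call ended in 7 of 15 alternatives. Of 12 ubiquitin shuttle genes and Vcp, 9 were tested and none passed, with a median of 0.47. Of 8 ubiquitin and E1 genes, 2 were tested and none passed. Of 14 interferon and antigen presentation genes, 5 were tested and none passed, with a median of -0.05.

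Of 16 listed regulators of proteasome genes, 12 were tested, with a median change of 0.66, and 1 rose. Maff, a small Maf protein that pairs with the transcription factors of the antioxidant response element, was at 0.29, 1.02 and 1.49 in shear samples, against -1.56, -1.25 and -0.84 in control samples. The groups lay apart by over 1 on the log2 scale. The change was 2.17 ± 0.33 (SE), or 4.51-fold, with adjusted p = 0.00518 (limma, Benjamini-Hochberg), and it passed in all 15 alternatives. Another listed regulator, Nfe2l2, had a change of 0.77 on its chosen probe and did not pass. With every probe as a feature, another of its probes passed (1.48, adjusted p = 0.0337, limma, Benjamini-Hochberg). Its remaining probes gave 0.26 and -0.12. Nfe2l2 was named after its probe values were seen, since its chosen probe did not pass. The changes of the 12 tested regulators ran from -0.28 for Sel1l to 2.17 for Maff, and Nfe2l1 had 0.25. Of the 6 osteoblast markers tested, with a median change of -0.10, 1 passed. Dlx5, a homeobox transcription factor, fell by 0.97 ± 0.23 (SE, adjusted p = 0.0492, limma, Benjamini-Hochberg), a call that ended in 10 of 15 alternatives. It was at -0.82, -0.37 and 0.22 in shear samples, against 0.31, 0.53 and 0.92 in control samples, without overlap. Msx2 (-0.56), Col1a1 (-0.25), Sparc (0.11), Alpl (0.055) and Col1a2 (0.051) did not pass. None of the tested macrophage and osteoclast (4), endothelial (4), adipocyte (3), chondrocyte (3) and muscle (3) markers passed. Their part in the proteasome values was not tested.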

How the data were processed

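Total RNA of 12 samples, 6 shear and 6 control, was labelled with Cy5 (odd replicates) or Cy3 (even replicates), per the labels' protocols. The deposited values are log2 values made by the authors. Dividing out 1 scale per sample and block of 598 features (48 blocks) returned whole-number net fluorescence for 100% of values within 0.002. The sources used here do not give scanner, background correction or filtering. The probe with most measured samples, then the highest mean, stood for its gene, and unnamed probes were kept. A feature needed a value in 4 of 6 samples of each group. limma 3.58.1 in R 4.3.3 modelled group plus dye, with duplicateCorrelation over arrays as random blocks (correlation 0.737). Each array held 1 group, so the groups rest on 3 arrays each, the number of arrays limits the precision, and p-values can be too small. Changes are log2 shear minus control with moderated standard errors. The fit was tested on simulated data. Members, lists and tests were chosen with earlier results of these data known. The rule named every member tested, gave sample values for the 8 smallest p and for groups without overlap, and named related genes past the threshold, 0.05. Alternatives changed centring, normalization, dye, probes, filter, block and arrays. Figures used Python 3.11.15 and matplotlib 3.10.9. Probes had 1 symbol (18511), several (937) or none (9256), and only the first were named.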

Additional observations from a re-analysis of the deposited data

Results flagged for a closer look

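Among 85 groups of 6 values of the proteasome genes examined, a lone sample stood apart in 1. Chance gives about 1 in 20 groups of independent values, and 1 in 85 is below that rate. Samples of an array were correlated, so the rate need not hold here. Psmb11 was at 0.75 in shear 4, below the next lowest shear sample at 0.95, a gap of 0.648 of the group's range. A probe of Psma7 had values in 4 shear samples, with a mean of -2.79, and none in control samples. A probe of Psme4 likewise had values in 4 shear samples, with a mean of -0.97, and none in control samples. Neither probe was tested, and both means lie under the block median.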

How the results depend on the processing

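Psmd11 kept its call in 12 of 15 alternatives and Psmd6 in 5, and 26 of the 44 genes, all 8 lid genes with Psm symbols among them, kept their sign in every alternative in which they were tested. The number of proteasome genes rising, 2, was 1 after centring on features measured in all samples, with quantile normalization, with cyclic loess, with each array averaged and with the mean of a gene's probes (then Psmd6), 4 with no dye term, 3 with values required in all 12 samples and 0 to 1 without an array. None fell in any, and 0 to 3 were lower at an unadjusted p under 0.05. The main setting had 0, against 3.39% of all features. The median change was 0.15 with cyclic loess. The excess of this median over all features, 0.26, was 0.25 after the other centring, 0.14 with quantile normalization, 0.16 with loess and 0.13 without the array of shear replicates 3 and 4. Over all features 200 rose and 32 fell, against 164 and 75 after the other centring, 114 and 19 with quantile normalization, 165 and 74 with loess, 65 and 7 with arrays averaged, 311 and 55 with no dye term, and 34 to 111 and 4 to 36 without an array. With a replicate block 7 proteasome genes rose, and 1095 features rose and 356 fell. That fit, 1 of the 15 alternatives, had no array block. It took the 2 samples of an array as independent, though they were correlated, so its p-values can be too small and its counts too high. Deviations of same-numbered samples correlated at only -0.09 to 0.12, and 1 of 6 numbers was its own best match. These values show no effect shared by same-numbered samples, but cannot tell whether the numbers mark a pairing in the experiment. Signs turned, none of them in a called gene, after the other centring for Psmb4 (-0.065), Psmd2 (-0.089) and Psmd9 (-0.067); with quantile normalization for Psmb4 (-0.098), Psmc3 (-0.029), Psmd2 (-0.093), Psmd4 (-0.0016) and Psmd9 (-0.065); with loess for Psma6 (-0.071), Psmb1 (-0.048), Psmb3 (-0.023), Psmb4 (-0.16), Psmb11 (-0.023), Psmc3 (-0.082), Psmd2 (-0.17), Psmd4 (-0.073), Psmd9 (-0.14) and Psme4 (-0.035); and with the mean of probes for Psma7 (0.19), Psmc1 (0.25) and Psmg1 (0.29). Without an array the ranges that crossed 0 were -0.13 to 0.046 for Psma4, -0.16 to 0.66 for Psma6, -0.92 to 0.081 for Psma7, -0.26 to 1.41 for Psmb2, -0.097 to 0.69 for Psmb3, -0.12 to 0.36 for Psmb4, -0.40 to 0.0081 for Psmb8, -0.34 to 0.067 for Psmb9, -0.46 to 0.13 for Psmc1, -0.090 to 0.60 for Psmc3, -0.33 to 0.61 for Psmd2, -0.058 to 0.42 for Psmd4, -0.042 to 0.17 for Psmd9, -0.12 to 0.44 for Psme4, -0.26 to 0.14 for Psmg1 and -0.72 to 0.11 for Psmg2. In a comparison chosen after seeing the data, leaving out each array gave 5 to 7 lid genes and 7 to 14 proteasome genes with the groups apart, against 6.89% to 10.6% of all features. Leaving samples out cannot make separated groups overlap, so these counts could not fall below the 5 and 7 of the full data. They therefore do not show how firm the separation is. Over the 15 alternatives the median change ran from 0.60 to 0.92 in the lid, 0.16 to 0.50 in the base ATPases, 0.079 to 0.55 in core alpha and 0.083 to 0.41 in core beta genes. The cause of these shifts was not tested. The number of arrays, 3 a group, limits what can be called.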
